A study of Mus musculus with 8 samples.

Results

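The genes described here are 10 members of the BCL2 family of death and survival proteins, read through RNA bound to YTHDF3 in mouse embryonic fibroblasts (MEFs). They were Bmf, Bbc3, Bcl2l11 and Pmaip1, which encode BH3-only proteins, Mcl1, Bcl2, Bcl2l1 and Bcl2l2, which encode pro-survival guardians, and Bax and Bak1, which encode the pore formers. A peak was taken as a member's when the gene name deposited beside it was that member, which gave 53 of the 87096 peaks kept in 4 lists. Merged wherever they overlapped by 1 bp, these peaks formed 24 of 39979 regions and named 7 of the 10 members.

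Wild-type C57BL/6 MEFs were taken from embryos 13.5 days after coitum and used at passages 5 to 6. Normal cells stayed in complete medium, and starved cells were held for 2 h in Hank's balanced salt solution with HEPES. RNA was recovered after immunoprecipitation (IP) with an antibody to YTHDF3, and input RNA from the same lysates saw no antibody. There were 2 replicates of each condition, and each of the 4 lists gives IP and input reads inside the IP peaks of 1 replicate. The lists held 17364 to 24701 peaks, with 8818619 to 19271667 IP reads and 2507434 to 5157523 input reads inside them. Reads outside a list's own peaks were not analysed here, so a region with no peak in a list has an unknown number of reads there and not 0. Of 9 fibroblast markers, 7 had a named peak (Col1a1 and Vim had none), as did 0 of 12 markers of blood, endothelial, epithelial, stem and muscle cells. Among the 7, Ddr2, Fn1 and Thy1 had peaks in 1 list each, with 19, 32 and 18 IP reads, and Col1a2 in replicate 1 alone.

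YTHDF3 is a cytoplasmic reader of N6-methyladenosine (m6A), a methyl mark on adenosines of mRNA that is written mostly near stop codons and in 3′UTRs. In the intrinsic pathway of apoptosis, the guardians hold the pore formers Bax and Bak1 in check at the outer mitochondrial membrane. BH3-only proteins occupy the groove of the guardians, and some of them also bind Bax and Bak1 directly, so that the pores open and cytochrome c leaves the mitochondria. Withdrawal of growth factors is a known trigger of the BH3-only protein Bim, and the guardians also meet the autophagy machinery through Beclin 1.

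The m6A mark is laid down in short sequence contexts, of which GGACT is a common form. The GGACT sites below lie under peaks of the member regions that were called in all 4 lists, and they are shown because each had a peak over it in 3 of the 4 lists. Each line gives 21 bases of the mm10 genome, 5′ to 3′ on the strand of the gene, with the GGACT in capitals.

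Bmf 3′UTR site a: caatgactGGACTggatctgt
Bmf 3′UTR site b: agaagctaGGACTgaggcttt
Bcl2l11 3′UTR site a: tttctcggGGACTggccaggt
Bcl2l11 3′UTR site b: accaggcaGGACTggaagtgc
Bcl2 5′UTR site a: ccagggggGGACTtcgtagca
Bcl2 5′UTR site b: gaatcacaGGACTtctgcaaa
Bcl2 5′UTR site c: caaatgctGGACTgaaaaatt

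Bmf sites a and b are at chr2:118531811-118531831 and chr2:118531609-118531629 on the minus strand, Bcl2l11 sites a and b at chr2:128159388-128159408 and chr2:128159741-128159761 on the plus strand, and Bcl2 sites a, b and c at chr1:106714076-106714096, chr1:106713719-106713739 and chr1:106713702-106713722 on the minus strand. On the strand of the gene, the Bmf region held 7 GGACT and 21 GGAC, which is 5.29 GGAC per kb. Over 6454 regions called in all 4 lists whose strand could be read from their exons, the median was 4.10 GGAC per kb, and 61.8% held a GGAC and 21.8% a GGACT in their middle 200 bases. In the same window the Bmf, Bcl2l11 and Bcl2 5′UTR regions held a GGAC, the Bcl2l1 and Bcl2 3′UTR regions held none, and 0 of these 5 held a GGACT. The Bcl2l11 region held 2 GGACT at 3.15 GGAC per kb, the Bcl2 5′UTR region 4 GGACT at 5.63 per kb and the Bcl2l1 region 3 GGACT at 2.71 per kb. On the opposite strand, GGACT was found 4, 0, 0 and 2 times in these regions, in the same order. A match is a stretch of letters in the genome, and methylation was not measured in these lists.

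Peaks of the members were compared with the size of each list. The normal lists held 11 and 9 peaks named for a member, and the starved lists 14 and 19, while the lists as a whole held 17364 and 21943 peaks in normal and 23088 and 24701 in starved cells. The members' share of a list was 0.0633% in normal and 0.0606% in starved cells in replicate 1, and 0.0410% and 0.0769% in replicate 2, so that it rose in replicate 2 alone. Of the 24 regions, 14 were called in starved lists alone, against 33.9% of all 39979 regions, and 4 were called in normal lists alone, against 21.0%. Bmf and Bcl2l11 supplied 4 regions each to these 14, Bcl2l2 supplied 3, and Bbc3, Mcl1 and Bcl2 supplied 1 each. A region had to be called in both starved lists and in no normal list to be a replicated gain, and that held for 2 of the 24, 1 in Bmf and 1 in Bcl2l2, against 4.7% of all regions. The reverse, both normal lists and no starved list, held for 0 of the 24, against 1.3% of all regions. The choice of the members used these same lists, so the counts describe the members and support nothing further. By the number of lists, 4 of the 24 regions were called in all 4, close to the 16.3% of all regions, and 16 were called in 1 list, 4 in 2 and 0 in 3, against 49.0%, 20.6% and 14.1% of all regions. Of the 24 regions, 10 lay mostly in the 3′UTR of their gene.

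**Figure D1:**
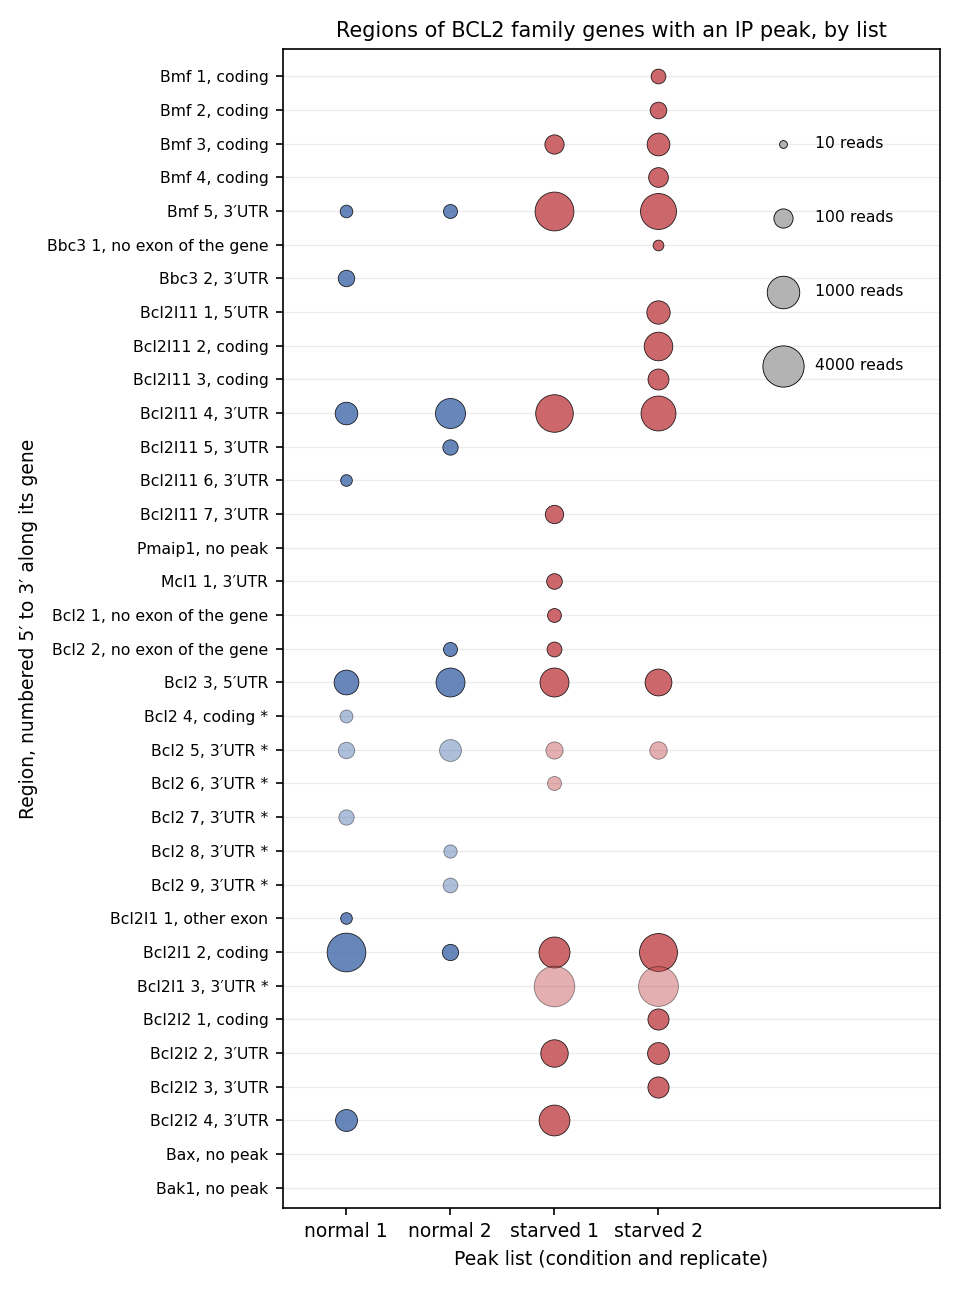
Regions of the 10 members (rows, 5′ to 3′ within each gene) with an IP peak in each of the 4 lists (columns); the area of a circle grows with the IP reads, blue is normal and red is starved, and pale circles with an asterisk are regions in a member's exon whose peaks are named for another gene. The Bmf 3′UTR goes from 28 and 37 IP reads in the normal lists to 2743 and 1751 in the starved lists, while Pmaip1, Bax and Bak1 have no peak by name or exon.

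Among the BH3-only genes, Bmf had the largest difference between the conditions in reads inside called peaks. Bmf encodes a protein that is tethered to the cytoskeleton through a dynein light chain and is freed by cell stress. Its main region, chr2:118528881-118532850 on the minus strand, holds 3677 bp of the 3′UTR and 102 bp of coding sequence in the principal GENCODE vM21 transcript. IP reads in that region were 28 and 37 in the normal replicates 1 and 2, and 2743 and 1751 in the starved replicates. Input reads were 0 and 1 in the normal lists, and 448 and 356 in the starved lists. Both starved lists were therefore far above both normal lists, in IP and in input alike. Per base of called peak, starved lists above normal lists were found in 19.3% of 6531 regions in IP and in 19.0% in input.

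The stretch called as bound also differed. In normal cells the Bmf peaks covered 440 and 560 bp, as 2 short peaks of 13 to 19 IP reads each in either list, where the lowest IP read counts of any kept peak were 13 and 11. They lay at chr2:118530901-118531120 and chr2:118531731-118531950 in replicate 1, and at chr2:118530651-118530900 and chr2:118531461-118531770 in replicate 2. Between the 2 normal lists, only chr2:118531731-118531950 and chr2:118531461-118531770 overlapped. The long starved peaks joined all of these short peaks into 1 region. In starved cells the Bmf peaks covered 3900 and 3620 bp, which is nearly the whole merged region. Because a list gives reads only inside its peaks, the reads were set per base of called peak and centred on the median of the 6531 regions called in all 4 lists. On that scale the log2 level of Bmf IP reads was -2.47 and -2.64 in normal cells and 0.23 and -0.21 in starved cells. Inside its called peaks, Bmf thus lay well under the typical bound region in normal cells and close to it in starved cells. The normal level came from the short peaks alone, so the 2 conditions were not read over the same bases. IP reads over the rest of the region were not known in normal cells.

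**Figure D2:**
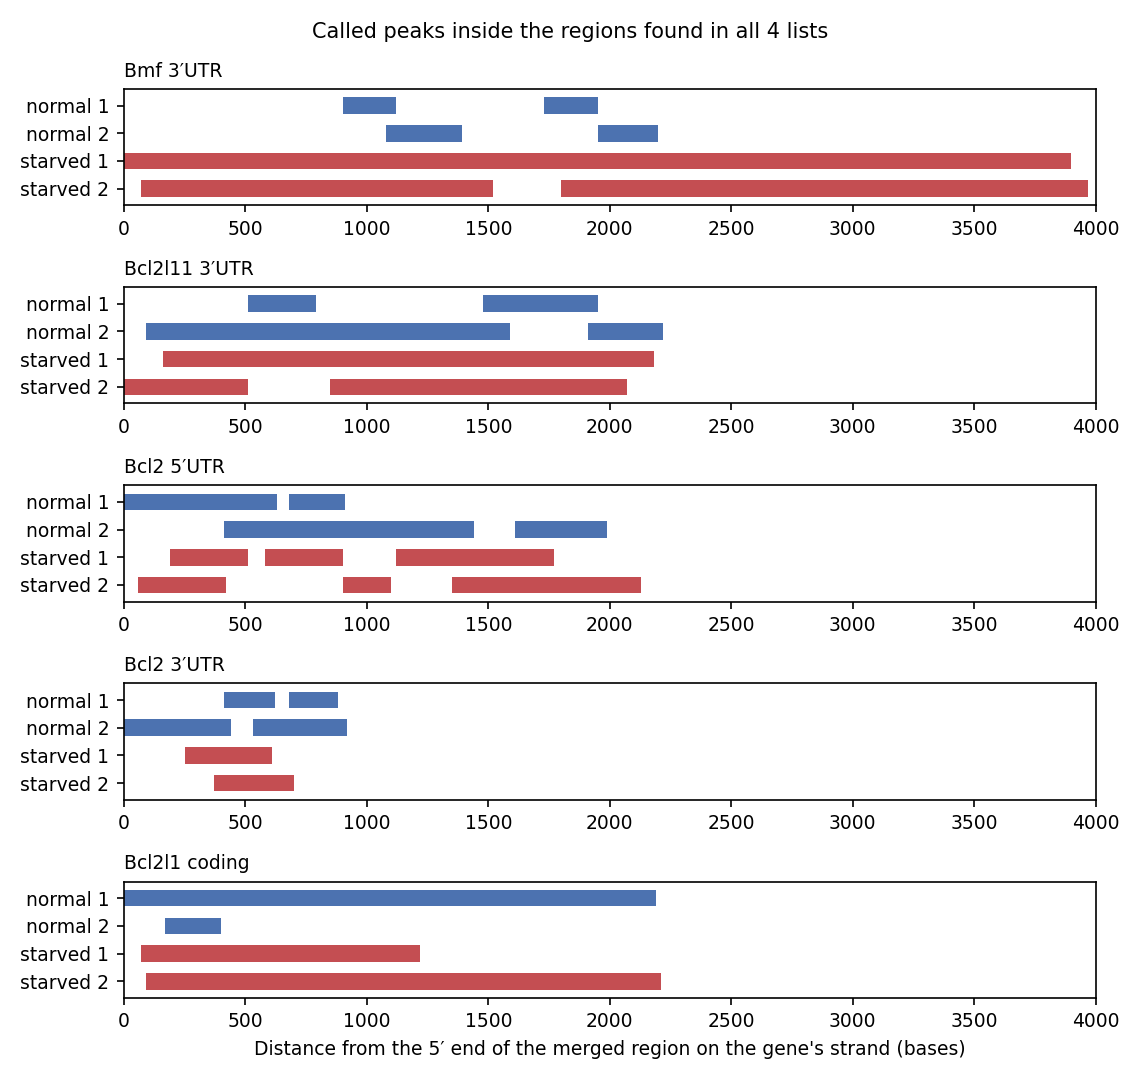
Extent of the called peaks in each list (rows within a panel; blue is normal, red is starved) inside the 5 regions found in all 4 lists, in bases from the 5′ end of the merged region on the strand of the gene. The Bmf peaks cover 440 and 560 bp in normal and 3900 and 3620 bp in starved lists, and the Bcl2l1 peaks cover 2190, 230, 1150 and 2120 bp in normal 1, normal 2, starved 1 and starved 2.

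From normal to starved, Bmf IP reads per base of called peak were 6.54-fold higher in replicate 1 and 5.39-fold higher in replicate 2. Input reads per base of called peak were 18.4-fold higher in replicate 1, with the normal input of 0 reads set to the floor of 3 reads. Without that floor, the exact 95% counting interval in replicate 1 began at 14.9 and had no upper end. In replicate 2, where the normal list had 1 input read, they were 65.2-fold higher, with an exact 95% counting interval from 11.6 to 2581. The mean log2 changes of 2.57 in IP and 4.32 in input were the highest of the 6531 regions, with the same floor of 3 reads in use for all of them. Without division by the covered length they were 5.31 in IP and 7.06 in input. These ranks follow from the contrast by which the gene was chosen and carry no test.

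The IP/input fold was lower in the starved lists. For the Bmf region it was 7.53 in normal replicate 1 with the floor of 3 reads. Without that floor, the exact 95% counting interval in normal replicate 1 began at 5.73 and had no upper end. From 1 input read, the fold was 37.0 in normal replicate 2, with an exact 95% counting interval from 6.24 to 1500. In starved cells it was 2.62 and 3.28. With the floor of 3 reads the fold was 2.87 times lower in replicate 1 and 3.76 times lower in replicate 2, which are changes of -1.52 and -1.91 on the log2 scale. The starved folds were below both normal folds, and the normal folds rested on those 0 and 1 input reads. A peak that small is listed only where input is nearly absent: all 1445 peaks of 13 to 19 IP reads in normal replicate 1 had at most 1 input read, and all 1098 in normal replicate 2 had at most 2. The low input and the high fold of Bmf in normal cells are thus what the thresholds let through. Its IP reads, input and fold outside those short peaks are not known. In bulk samples, more cells that hold an RNA and more of it in each cell cannot be told apart.

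Bmf had 4 further regions, all in starved lists alone and all over coding exons. The region chr2:118546551-118547170 was called in both starved lists, with 101 and 190 IP reads, 11 and 56 input reads and folds of 3.93 and 2.26. The other 3 were called in starved replicate 2 alone, with 43 to 110 IP reads. No normal list had a peak over a coding exon of Bmf outside the main region.

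The 3 regions whose 4 changes, IP and input in each replicate, were nearest to those of Bmf were named for Frat2, Maf and Mnt, at Euclidean distances of 2.13, 2.26 and 2.40 on the log2 scale. Maf and Mnt encode transcription factors, and Frat2 encodes a protein that binds the kinase GSK3. The IP reads of Maf were 117 and 243 in normal and 2015 and 1815 in starved lists, and its input reads were 6 and 63 against 384 and 516. Even the nearest region was thus over 2 log2 units away from Bmf.

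Bcl2l11 encodes Bim, the BH3-only protein that binds all the guardians. Its main region, chr2:128158101-128160320 on the plus strand, holds 1991 bp of the 3′UTR and 99 bp of coding sequence. IP reads were 184 and 666 in the normal lists and 2258 and 1472 in the starved lists. Input reads were 47 and 240 in normal cells, and 464 and 430 in starved cells. As with Bmf, both starved lists exceeded both normal lists. Per base of called peak, that order held in 19.3% of all 6531 regions in IP and in 19.0% in input. Each normal list here had 2 peaks, which together covered 750 and 1810 bp.

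Per base, Bcl2l11 IP reads were 2.70-fold higher in replicate 1 and 1.70-fold higher in replicate 2, and input reads were 2.00 and 1.15 higher on the log2 scale. The IP/input fold was 3.16 and 2.78 in normal lists and 2.09 and 2.28 in starved lists, so that it was lower in starved cells in both replicates, by 0.60 and 0.28 on the log2 scale. Only the rise in input passed a cutoff of 1.8-fold in both replicates, since IP reads in replicate 2 stayed below it. The study set 1.8-fold on the change of YTHDF3 target peaks, and here it was also put on input reads per base. Of the other 6 Bcl2l11 regions, 4 were called in 1 starved list and 2 in 1 normal list. In starved replicate 2 there were peaks over the 5′UTR and 2 coding exons with 211, 519 and 138 IP reads, none of which was called in another list.

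Bbc3 encodes Puma, a BH3-only target of p53. Its 3′UTR region, chr7:16317381-16317590, was called in normal replicate 1 alone, with 60 IP and 18 input reads. The other, chr7:16309901-16310100, lay in an intron and was called in starved replicate 2 alone with 19 IP and 0 input reads. The 2 regions of Bbc3 thus had no replicate in either condition. Pmaip1, which encodes Noxa, a BH3-only partner of Mcl1, had no named peak in any list and no peak of any name over its exons.

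The guardians gave no region that passed the cutoff in both replicates. Mcl1 encodes a short-lived survival protein, and its single peak, chr3:95661911-95662130 in the 3′UTR, was listed in starved replicate 1 alone with 51 IP and 5 input reads. Bcl2, the founding member of the family, had a region over its 5′UTR and first coding exon, chr1:106712331-106714460, with 1394 bp of 5′UTR and 550 bp of coding sequence. IP reads there were 270 and 551 in normal lists and 555 and 386 in starved lists, and input reads were 83 and 234 against 96 and 78.

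Relative to the median region, both starved lists were below both normal lists for Bcl2 in reads per base. The same order held in 20.3% of all 6531 regions in IP and in 18.4% in input. The log2 changes in replicates 1 and 2 were -0.30 and -0.88 for IP reads per base and -0.25 and -1.27 for input reads per base. The IP/input fold was 2.62, 2.35, 2.48 and 3.30 in normal 1, normal 2, starved 1 and starved 2, and the conditions overlapped. In direction, the Bcl2 5′UTR was opposite to Bmf and Bcl2l11 in IP and input, and it passed 1.8-fold in replicate 2 alone. The difference between these genes was not tested.

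The deposited gene names, given by HOMER, follow the nearest transcription start site, and for Bcl2 they left out its own 3′UTR. Peaks in 6 regions of Bcl2 exons were named Mir3473f, of which chr1:106541881-106542800, wholly in the 3′UTR, was called in all 4 lists. IP reads in it were 60, 162, 69 and 72, in the order normal 1, normal 2, starved 1, starved 2, and input reads were 9, 53, 4 and 15. Its changes in IP reads per base were -0.37 and -0.28 on the log2 scale. The antisense gene D630008O14Rik shares 558 bp of that region, and the counting was not stated to use strand, so reads of the 2 genes cannot be told apart. In turn, 2 regions named Bcl2, chr1:106722091-106722570 and chr1:106723541-106723800, lay in exons of Kdsr, which encodes an enzyme of sphingolipid synthesis.

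Bcl2l1 encodes Bcl-xL. Its region chr2:152829261-152831470, with 393 bp of 5′UTR and 564 bp of coding sequence, had 2679 and 58 IP reads in normal lists and 776 and 2391 in starved lists. Input reads were 1012 and 22 in normal lists and 124 and 634 in starved lists. The replicates disagreed: IP reads per base changed by -1.62 on the log2 scale in replicate 1 and by 1.72 in replicate 2, and input by -1.97 and 1.89. Its fold stayed between 2.13 and 2.68 in all 4 lists, so IP and input moved together within each list.

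The 3′UTR of Bcl2l1, chr2:152780591-152782510, holds 1473 bp of 3′UTR and 138 bp of coding sequence, and its peaks were named Cox4i2. It was called in both starved lists and in no normal list, with 3611 and 3206 IP reads, 701 and 1048 input reads, and folds of 2.21 and 2.04. These folds lay just above the limit of 2 that a peak had to reach, and the values of the normal lists there are not known. By IP reads it was the largest region of the members, and it was found by exon after the lists were seen. Assignment by exon in place of name gave 28 regions, of which 7 carried another gene's name, 5 were called in all 4 lists and 3 in both starved lists alone.

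Bcl2l2 encodes Bcl-w. Its 3′UTR region chr14:54885301-54886120 was called in both starved lists alone, with 430 and 160 IP reads, 87 and 47 input reads and folds of 2.12 and 2.27. A second 3′UTR region, chr14:54886681-54887900, was called in normal replicate 1 with 164 IP and 54 input reads and in starved replicate 1 with 754 and 152. Within replicate 1 that region differed by -0.03 in IP and 0.15 in input per base on the log2 scale. The readthrough gene Gm20521 shares the region chr14:54884591-54884830, listed in starved replicate 2 alone. Bax and Bak1, which form the pores, had no named peak in any list and no peak of any name over their exons.

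**Figure D3:**
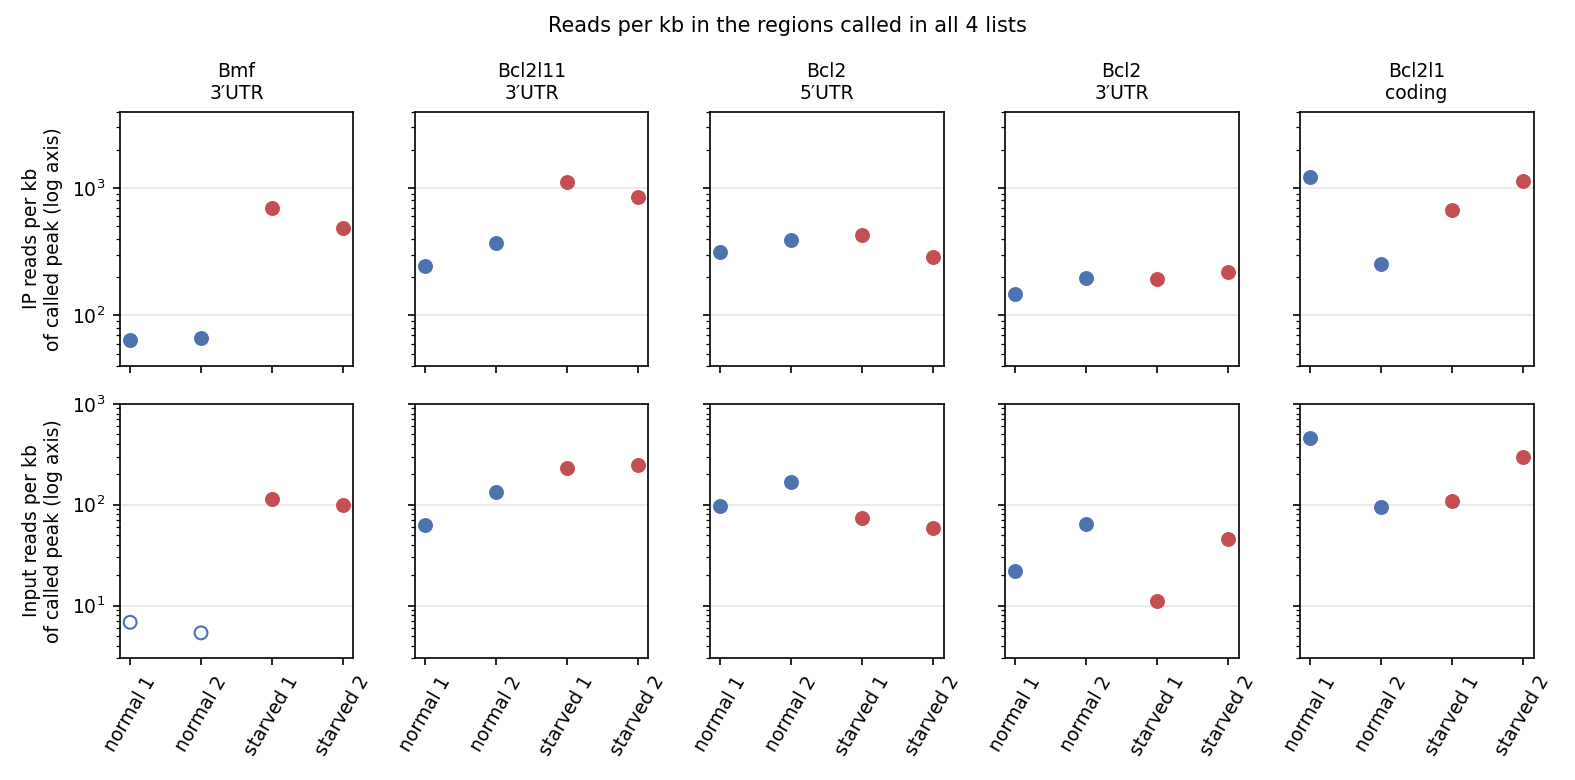
IP reads (top) and input reads (bottom) per kb of called peak, on log axes, in the 5 regions called in all 4 lists; each point is 1 list, blue is normal and red is starved, and open points had under 3 reads and are drawn at 3 reads. Bmf and Bcl2l11 are higher in both starved lists in IP and input, and the 2 normal lists of Bcl2l1 lie at 1223 and 252 IP reads per kb. On the centred scale per base, 19.3% of 6531 regions are higher in both starved lists in IP and 19.0% in input.

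The 7 genes with named peaks were ordered by IP reads per kb of named peak and per 1000000 IP reads inside all peaks of the list, a scale set per length. In normal replicate 1 the order was Bcl2l1 at 128, Bcl2l2 at 42.3, Bcl2 at 35.6, Bbc3 at 32.4, Bcl2l11 at 22.6 and Bmf at 7.22, and in normal replicate 2 it was Bcl2 and Bcl2l11, both at 24.6, Bcl2l1 at 17.5 and Bmf at 4.59. In starved replicate 1 it was Bcl2l11 at 62.1, Bcl2l1 at 42.9, Bmf at 41.5, Bcl2l2 at 37.9, Bcl2 at 21.7 and Mcl1 at 14.8. In starved replicate 2 it was Bcl2l1 at 58.5, Bcl2l11 at 36.2, Bcl2l2 at 25.9, Bmf at 21.9, Bcl2 at 14.9 and Bbc3 at 4.93. Bmf was the lowest gene listed in both normal lists and had passed Bcl2 in both starved lists. The genes above Bmf in the normal lists changed places or were missing between replicates, with Bcl2l1 at 128 and 17.5. In the starved lists, Bcl2l1 and Bcl2l11 changed places, as did Bmf and Bcl2l2. These genes were therefore not separated. By exon in place of name, Bcl2l1 was at 92.7 and 73.5 in the starved lists, above Bcl2l11 in both, while in the normal lists it stayed at 128 and 17.5.

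Of the 4 member regions named for their gene and called in all 4 lists, IP reads per base were at least 1.8-fold higher in both replicates in 1 (Bmf), against 1.07% of the 6531 regions, and lower in 0, against 1.70%. Input reads per base were higher in 2 (Bmf and Bcl2l11), against 2.79%, and lower in 0, against 3.03%. The IP/input fold was lower in 1 (Bmf), against 0.322%, and higher in 0, against 0.230%. The Bmf calls in input and fold rest on the 0 and 1 normal input reads. Nearest to the cutoff, Bcl2l11 was just inside for input at 2.22-fold in replicate 2, and just outside for IP at 1.70-fold. The median change over all 6531 regions was 0.00 for IP, 0.03 for input and 0.01 for the fold, where the values for IP and input are set by the centring on these same regions.

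**Figure D4:**
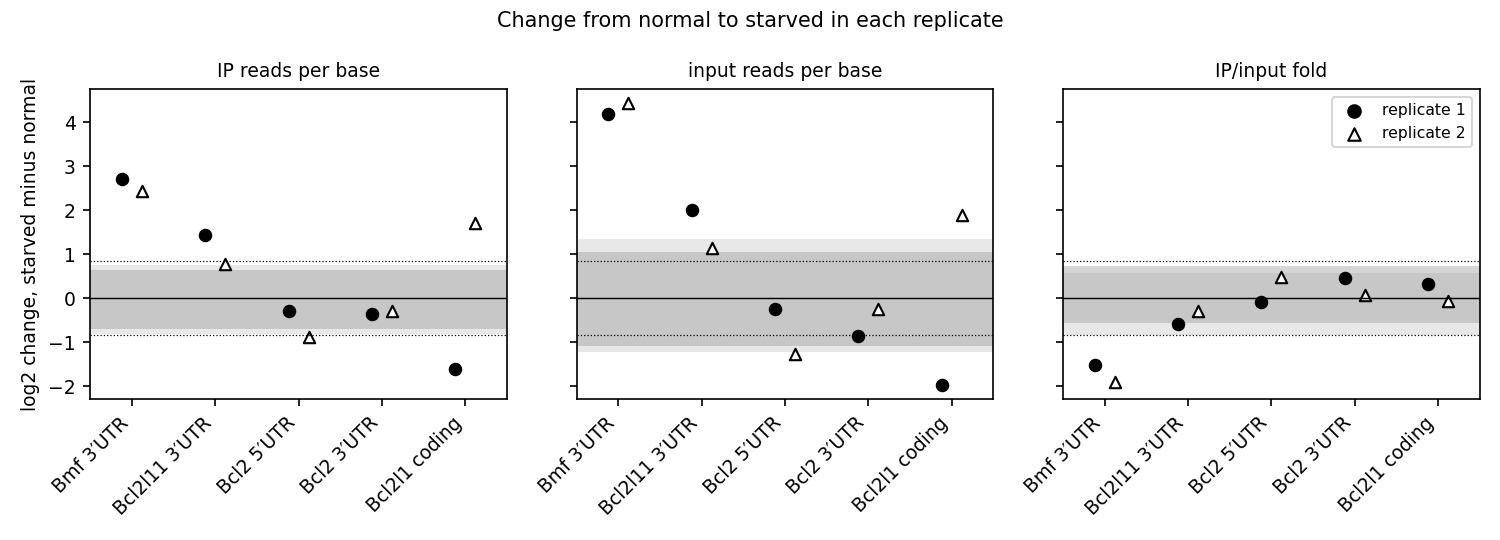
Log2 change from normal to starved in replicate 1 (filled circles) and replicate 2 (open triangles) for the 5 regions called in all 4 lists; grey bands span the 5th to 95th percentile of the 6531 regions in each replicate and dotted lines mark 1.8-fold. Bmf is outside the bands in all 3 panels, and the replicates of Bcl2l1 lie on opposite sides of 0 in IP and input.

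Both starved lists were above both normal lists in IP reads per base in 2 of the 4 named regions, against 19.3% of all regions, and in input in the same 2, Bmf and Bcl2l11, against 19.0%. They were below in both measures in 1, Bcl2, against 20.3% and 18.4%. The IP/input fold was below both normal lists in 2, again Bmf and Bcl2l11, against 13.4%, and above in 0, against 15.2%.

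edgeR's quasi-likelihood test across the 6531 regions, at a Benjamini-Hochberg adjusted p under 0.05, called 12 higher (0.184%) and 61 lower (0.934%) in IP reads per base. In input reads per base it called 14 higher (0.214%) and 50 lower (0.766%). Of the 4 members tested, Bmf was among the regions called higher in both fits, on the normal reads of the short peaks described above, and no other member was called. DESeq2's Wald test also called Bcl2l11 higher in both. In the IP/input ratio it called 1 region higher (0.0153%) and 0 lower, against 82 and 101 at an unadjusted p under 0.05 and 1 and 0 by DESeq2. No member passed the adjusted threshold there, and 1 of the 4 was among the 101 lower at the unadjusted one. Since the members were picked on this contrast, their calls are given as a description.

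**Figure D5:**
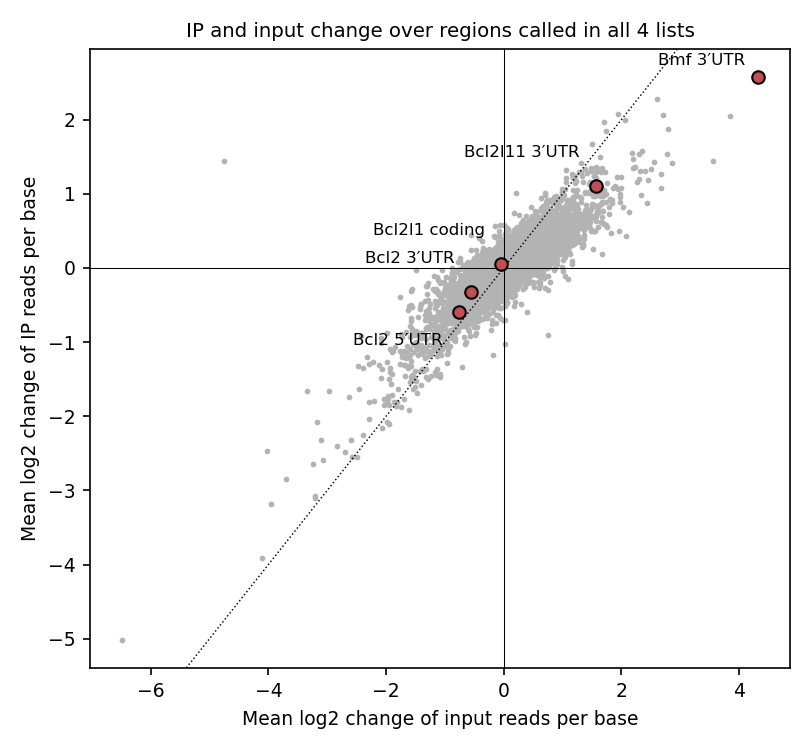
Mean log2 change of IP reads per base against that of input reads per base over the 2 replicates, for the 6531 regions called in all 4 lists (grey) and the 5 regions of the members (red); the dotted line marks equal change. Bmf, at 4.32 in input and 2.57 in IP, is the region farthest to the right and lies below the line.

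Other genes of the pathway were taken from 3 lists by role. Of 16 other BCL2 family genes, 6 had a named peak and 3 (Bad, Bid and Bcl2l14) had 8 regions in all 4 lists. None of these 8 passed 1.8-fold in IP or in the fold, and 1 was lower in input, a region named Bcl2l14 at chr6:134468431-134469050 that lay in no exon of that gene, with input reads of 23, 82, 5 and 51 in normal 1, normal 2, starved 1 and starved 2. The median changes over the 8 regions were 0.12 for IP, 0.21 for input and -0.06 for the fold on the log2 scale.

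Of 15 genes of the caspase cascade, 8 had a named peak, and 4 (Birc6, Casp9, Diablo and Birc3) had 8 regions in all 4 lists. Only Birc3, which encodes an inhibitor of apoptosis with ubiquitin ligase activity, had a region past the cutoff, lower in input at chr9:7860331-7860740 by -0.91 and -0.88 on the log2 scale, with input reads of 27, 67, 19 and 15. Over all peaks named Birc3, reads went the other way. IP reads were 176 and 1511 in normal and 8288 and 7343 in starved lists, and input reads 50 and 666 against 1545 and 2186. The covered length was 710 and 1870 bp against 4250 and 3350 bp. The median changes over the 8 regions were -0.16, -0.09 and -0.02 for IP, input and the fold. Of 11 genes that act on the family, 8 had a named peak and 4 (Foxo3, Vdac2, Foxo1 and Fbxw7) had 7 regions in all 4 lists, with 0 past the cutoff and median changes of 0.57, 0.49 and 0.10. Foxo3, a transcription factor whose known targets include Bcl2l11, came nearest, with input changes of 0.82 and 0.97 and IP changes of 0.94 and 0.78 on the log2 scale in its region chr10:42181761-42186500. The IP/input fold of that region changed by 0.09 and -0.09.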

How the data were processed

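RIP-seq of YTHDF3 was analysed in normal and starved MEFs with 2 replicates each. Per the study's methods, the authors trimmed reads, aligned them to mm10 with TopHat2 2.0.13, called peaks of IP over input with diffReps and named them with HOMER. The deposited IP and input columns hold counts scaled by the authors with 1 factor per library (deposited signal, raw counts in normal replicate 2), and the deposited p-values are those of diffReps. The authors' fold changes were not used. The factor was found from the spacing of the values, since the lowest IP values were 11 to 17 reads and not 1. Dividing by it gave whole reads for 100% of values, within 0.011 or 0.002% of the value. Peaks with fold of at least 2 and a p-value under 0.0001 were merged by an overlap of 1 bp. Values of a region were summed over its peaks, input was set to at least 3 reads, and change was called at 1.8-fold in both replicates. edgeR 4.0.16 (TMM, quasi-likelihood, offset for covered length) and DESeq2 1.42.0 ran on R 4.3.3. On simulated counts over 6531 regions with 200 changed by 2.5-fold, edgeR found 96.5% in IP, 78.0% in input and 40.0% in the ratio. In the same order, it made 6, 12 and 2 false calls. The simulation used 1 dispersion for all regions and no likeness of same-numbered lists. The rates therefore do not measure power on the real counts. Members and gene lists were chosen with earlier results of these data known. Named genes were all members, genes of the 3 lists past the cutoff (at most 3 per list and direction) and the 3 regions nearest to Bmf. Foxo3, Maf's reads and genes listed for having regions in all 4 lists were named after their values were seen. Exact intervals cover counting error only. Labels do not say that replicates were separate cultures, so tests measure the spread between these samples. Sequences were read from the GRCm38 (mm10) assembly.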

Additional observations from a re-analysis of the deposited data

How the results depend on the processing

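Among the 4 member regions, results kept their counts in most alternatives, though some of these counts were 0 from the start. Where the regions remained in all 4 lists, no mean change of a member past the cutoff turned its direction. Cutoffs of 1.5-fold and 2-fold and assignment by exon could not alter a mean, so they do not bear on direction. With peaks of at least 4-fold, or with 50% reciprocal overlap, 0 member regions remained in all 4 lists, so the counts of Bmf and Bcl2l11 fell to 0 with them. Taking the fold of the best peak gave 0 regions lower in IP/input fold (Bmf changed by -0.74 on the log2 scale), and a 1.5-fold cutoff gave 2 higher in IP. With either replicate left out, 2 were higher in IP, 1 was lower in IP and 1 was lower in input: Bmf and Bcl2l11 were higher and Bcl2l1 lower by replicate 1 alone, and Bmf and Bcl2l1 higher in IP and Bcl2 lower by replicate 2 alone. Adding 1 read to IP and input in place of the floor moved the Bmf change in fold to -2.85 and in input to 5.41. Reads not divided by covered length gave mean log2 changes of 5.31 for Bmf IP (2.57 per base), 7.06 for Bmf input (4.32 per base) and 1.61 for Bcl2l11 IP (1.10 per base).

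The edgeR counts over all 6531 regions moved more. DESeq2's Wald test, with its own size factors, called 67 higher and 113 lower in IP and 42 and 80 in input, with Bmf and Bcl2l11 (2 members) higher in each. Without the offset for length, edgeR called 0 higher and 0 lower in IP and in input, with 0 members. Leaving out 1 library gave 7 to 83 higher and 32 to 118 lower in IP, 25 to 89 and 60 to 128 in input, and 1 to 2 higher and 0 to 1 lower in the ratio. Members called then numbered 1 to 2 higher and 0 to 1 lower in IP, the same in input, and 0 to 1 lower in the ratio (Bmf, without starved replicate 2). Bmf was called higher in IP and input in each of these, while Bcl2l1 in IP was called higher without normal replicate 1 and lower without normal replicate 2. The replicates share only a number in the labels. With the replicate number as a block, edgeR called 321 higher and 329 lower in IP, 108 and 150 in input, and 1 and 0 in the ratio, with Bmf and Bcl2l11 (2 members) higher in IP and in input. Same-numbered lists deviated together over regions (r = 0.45 in IP, 0.31 in input, 0.28 in the fold), which is a hint from the data and not the design.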
